A study of Mus musculus with 30 samples.

Results

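Eph receptors are the largest family of receptor tyrosine kinases and bind ephrins, ligands that are themselves fixed to the surface of neighbouring cells. EphA receptors bind mainly the lipid-anchored A-type ephrins, and EphB receptors bind mainly the transmembrane B-type ephrins. In the hippocampus, contact between Eph receptors and ephrins steers axons during development and acts on dendritic spine shape, glutamate receptor clustering and long-term potentiation in the adult. Described here are 10 Eph receptor genes in the dorsal hippocampus (dCA1) of mice 1 h after object location memory (OLM) training, namely Epha3, Epha4, Epha5, Epha6, Epha7, Epha10, Ephb1, Ephb2, Ephb3 and Ephb6. They are 10 of the 14 Eph receptor rows among 24883 rows of the expression table. The list was chosen by a measured result, the higher Epha6 in every trained condition than in home-cage mice, so the levels of the 10 receptors against home-cage mice are given as a description. The intervals and counts printed for those comparisons come from the fit over all genes and give no support of their own. All 10 had a mean of at least 1 FPKM (fragments scaled by transcript length and library size) over the 30 libraries, the minimum for entering the fit, as did 13184 rows in all.

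The 30 wild-type male C57BL/6J mice were adult and single-housed, with 6 mice in each of 5 conditions and 1 library per mouse. All 5 conditions received an infusion of in vivo-jetPEI, a transfection reagent, into the dorsal hippocampus on both sides. Mice labelled VEH received the reagent without DNA and were kept in the home cage with handling only (VEH-HC), trained for 10 min, a threshold session (VEH-T10), or trained for 3 min, a subthreshold session (VEH-T3). The other conditions received the reagent with a plasmid for CREST (Ss18l1), a subunit of the neuronal BAF chromatin remodelling complex, carrying a change at a tyrosine near its end. Y397F-T10 mice carried the Y397F form, labelled phospho-null, and were trained for 10 min. Y397D-T3 mice carried the Y397D form, labelled phospho-mimetic, and were trained for 3 min. The paper could not detect phosphorylation of this tyrosine and calls both forms point mutants only. The plasmids drive HA-tagged mouse Crest from a short CaMK2 promoter, which is active in excitatory neurons, and transfected cells are not separated from others in these bulk libraries. No condition paired a plasmid with home-cage housing or with unmutated CREST. Training followed days of habituation to the OLM chamber, which home-cage mice did not receive. Habituation and the training session cannot be told apart in the comparisons with VEH-HC.

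The libraries ranged from 0.812 to 1.24 times the depth of the median library, estimated from the step size of low FPKM values, and their absolute depth is unknown. Ss18l1 itself averaged 12.3 ± 0.745 FPKM in VEH-HC, 12.9 ± 1.08 in VEH-T3, 13.5 ± 0.471 in Y397D-T3, 12.01 ± 1.18 in VEH-T10 and 12.6 ± 0.920 in Y397F-T10 (SD, n = 6), so the plasmid conditions overlapped the vehicle conditions. Markers of CA1 pyramidal neurons were present in every library, with a summed level of 161 to 240 FPKM, and markers of CA3 and CA2 (134 to 254), dentate granule cells (74.2 to 202), thalamus (15.3 to 56.3) and deep cortex (34.3 to 71.4) were present as well. Choroid plexus markers ranged from 10.4 to 12801 FPKM in sum. In 3 libraries, mouse 1 of VEH-T10, of Y397F-T10 and of VEH-T3, the astrocyte marker sum was 391 to 419 against 506 or more in the other 27, and results are given below with and without them. Their oligodendrocyte (1112 to 1242 against 1403 or more), microglia (96.2 to 116 against 141 or more) and endothelium sums (44.6 to 46.5 against 48.8 or more) were also the lowest. Their dentate granule sums were 74.2 to 107 against a median of 158 in the other 27, and their pan-neuronal sums 1603 to 1641 against a median of 1387. Fewer cells of a type and less RNA per cell cannot be told apart in bulk tissue.

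The sequences upstream of 3 receptor genes are shown, since with all 30 libraries these receptors had the 3 largest log2 differences from home-cage mice in every trained condition. Without the 3 libraries Epha7 was above Epha5 and Epha4 in VEH-T3 (0.45 against 0.43 and 0.37), and all 3 were at 0.35 in Y397F-T10. Epha6 lies at chr16:59653483-60605531 on the minus strand, Epha4 at chr1:77367185-77515088 on the minus strand and Epha5 at chr5:84054761-84417382 on the minus strand (GENCODE annotation of GRCm38, the same assembly as mm10). Each sequence is the 250 bases before the start site of the gene, read 5′ to 3′ along its strand from RefSeq on GRCm38.p6, at chr16:60605532-60605781, chr1:77515089-77515338 and chr5:84417383-84417632. Capitals mark the letters CCAAT, the CCAAT box, and TGACG, the half-site of the cyclic AMP response element to which CREB binds, on either strand, so that ATTGG and CGTCA are their reverse complements.
Epha6: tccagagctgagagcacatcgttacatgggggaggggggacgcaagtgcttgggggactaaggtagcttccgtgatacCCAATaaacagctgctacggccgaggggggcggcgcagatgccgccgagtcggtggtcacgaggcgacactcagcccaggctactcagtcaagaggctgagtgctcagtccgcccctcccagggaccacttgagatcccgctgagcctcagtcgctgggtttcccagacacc
Epha4: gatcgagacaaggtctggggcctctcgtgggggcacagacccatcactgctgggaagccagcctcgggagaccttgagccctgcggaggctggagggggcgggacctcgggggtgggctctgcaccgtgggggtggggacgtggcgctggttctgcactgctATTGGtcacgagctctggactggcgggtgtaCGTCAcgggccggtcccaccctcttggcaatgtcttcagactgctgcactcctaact
Epha5: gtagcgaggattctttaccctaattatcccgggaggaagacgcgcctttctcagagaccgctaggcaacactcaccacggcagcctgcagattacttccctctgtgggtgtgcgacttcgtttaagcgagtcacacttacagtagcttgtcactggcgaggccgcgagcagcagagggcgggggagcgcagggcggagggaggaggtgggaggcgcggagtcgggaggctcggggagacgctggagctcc
The Epha6 sequence held CCAAT once, 172 bases before the start site. The Epha4 sequence held CCAAT once, on the other strand, and TGACG once, 57 bases before the start site, also on the other strand. The Epha5 sequence held neither. Among all 32851 RefSeq mouse promoter windows of the same 250 bases, 33.8% held CCAAT and 17.8% held TGACG. Of the 11 windows of the 10 receptors (Epha7 has 2 start sites), 7 held CCAAT and 2 held TGACG, those of Epha4 and Ephb3. None of the 11 held the full element TGACGTCA (1.55% of all windows), the AP-1 motif TGANTCA (6.75%), the E-box CACGTG (6.02%) or the EGR motif GCGTGGGCG (0.536%), each searched on both strands. The full element contains the half-site, and a match of letters describes the sequence only.

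Epha6, whose loss in mice impairs learning and memory, was the receptor with the largest difference between home-cage and trained mice. Its lowest, median and highest levels over 6 mice were 7.39, 10.8 and 12.7 FPKM in VEH-HC. After 3 min they were 13.4, 17.7 and 20.1 FPKM in VEH-T3 against 16.8, 18.9 and 24.5 FPKM in Y397D-T3. After 10 min they were 13.1, 15.1 and 17.3 FPKM in VEH-T10 against 12.9, 15.9 and 21.4 FPKM in Y397F-T10. Each of the 24 trained mice thus had a higher Epha6 level than the highest of the home-cage mice, whereas the trained conditions overlapped each other. Mean Epha6 levels were 10.6 ± 2.05 FPKM in VEH-HC, 17.6 ± 2.51 in VEH-T3, 19.4 ± 2.62 in Y397D-T3, 15.1 ± 1.65 in VEH-T10 and 16.5 ± 3.32 in Y397F-T10 (SD, n = 6). On the log2(FPKM + 1) scale the difference from VEH-HC was 0.69 (95% interval 0.44 to 0.94) in VEH-T3, 0.83 (0.58 to 1.08) in Y397D-T3, 0.49 (0.24 to 0.74) in VEH-T10 and 0.60 (0.35 to 0.85) in Y397F-T10. These 4 differences share the same 6 home-cage mice.

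**Figure D1:**
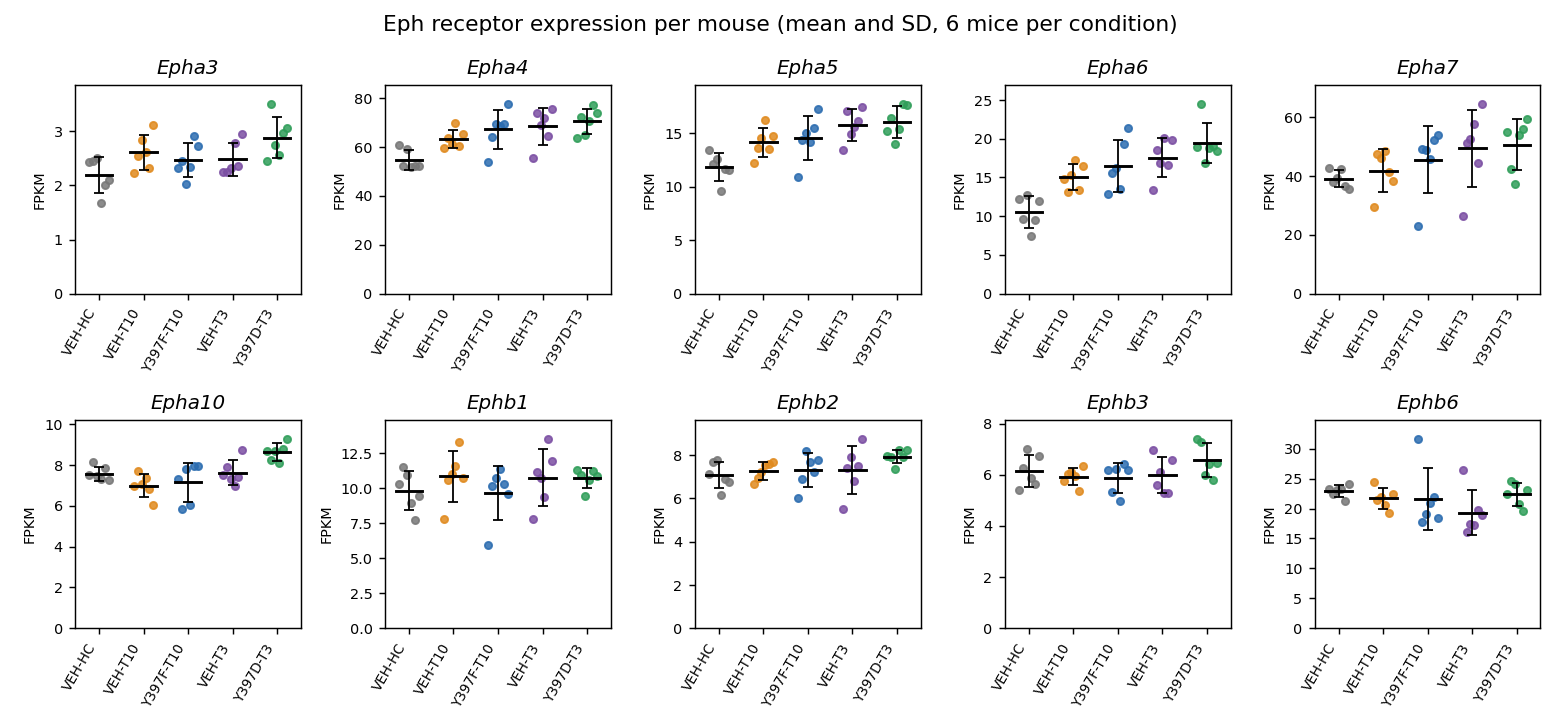
FPKM of the 10 Eph receptors in each of the 30 mice (points), with the mean and SD of the 6 mice of each condition (black) and the 5 conditions along the horizontal axis. Every trained point of Epha6 lies above the highest VEH-HC point of 12.7 FPKM, and the lowest Epha7 points are mouse 1 of VEH-T10, Y397F-T10 and VEH-T3.

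The home-cage level of Epha6 rested in part on mouse 4 of VEH-HC, at 7.39 FPKM against 9.56 to 12.7 in the other 5. The same mouse had the lowest Epha3, Epha4, Epha5 and Ephb2 of its condition, at 1.67, 52.01, 9.55 and 6.14 FPKM, the Epha4 level by a narrow margin to the next mouse at 52.1 FPKM. Without it the Epha6 differences were 0.60 in VEH-T3, 0.75 in Y397D-T3, 0.40 in VEH-T10 and 0.51 in Y397F-T10 on the log2 scale. Without the 3 libraries with the lowest astrocyte markers they were 0.76, 0.83, 0.49 and 0.66. Since mouse 4 held the lowest Epha6 of VEH-HC, which all 4 differences share, leaving it out had to make each of them smaller.

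With Epha6 higher in trained mice, its part of the receptor pool was larger there. This share and the counts against Epha5 rest on the Epha6 levels that chose the list, so they are a description only. As a share of the summed FPKM of the 10 receptors, it was 6.11% ± 0.982 in VEH-HC, 8.56% ± 0.478 in VEH-T3, 9.01% ± 1.14 in Y397D-T3, 7.94% ± 0.773 in VEH-T10 and 8.29% ± 0.933 in Y397F-T10 (SD, n = 6). Epha6 exceeded its close relative Epha5 in 2 of 6 VEH-HC mice, 6 of 6 VEH-T3 mice, 6 of 6 Y397D-T3 mice, 4 of 6 VEH-T10 mice and 5 of 6 Y397F-T10 mice. The summed level of the 6 EphA genes averaged 126 FPKM in VEH-HC and 144 to 168 FPKM in trained conditions, and that of the 4 EphB genes averaged between 43.4 and 47.6 FPKM in all 5.

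Over all 30 libraries the receptors covered a wide range of levels per transcript length. Epha4 had the highest mean at 64.9 FPKM, followed by Epha7 at 45.3, Ephb6 at 21.6, Epha6 at 15.8, Epha5 at 14.4, Ephb1 at 10.4, Epha10 at 7.60, Ephb2 at 7.38, Ephb3 at 6.10 and Epha3 at 2.53 FPKM. Epha4 and Epha7 together made up most of the summed receptor level, at 33.1% and 23.1%. This order pools home-cage and trained mice. By the means of single conditions, Epha5 (11.8 FPKM) was above Epha6 (10.6 FPKM) in VEH-HC, and Ephb2 was above Epha10 in VEH-T10 (7.27 against 7.00 FPKM) and in Y397F-T10 (7.30 against 7.15 FPKM). Neighbours in the pooled order overlapped in their range over mice in each case but the last, since Epha3 (1.67 to 3.51 FPKM) lay wholly below Ephb3 (4.97 to 7.42 FPKM). Epha7 and Ephb6 overlapped only through the 3 libraries with the lowest astrocyte markers. In the other 27, Epha7 was at least 35.6 FPKM and Ephb6 at most 24.6 FPKM.

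Epha4, which binds both classes of ephrin and controls spine retraction in CA1 on contact with ephrin on astrocytes, was the most abundant receptor in every condition. Its lowest, median and highest levels were 52.0, 52.3 and 60.7 FPKM in VEH-HC, 55.6, 70.6 and 75.6 FPKM in VEH-T3 and 63.9, 71.6 and 77.4 FPKM in Y397D-T3. They were 59.7, 62.5 and 69.8 FPKM in VEH-T10 and 53.9, 69.1 and 77.7 FPKM in Y397F-T10. All 6 Y397D-T3 mice were above all 6 home-cage mice, while the other trained conditions overlapped them. The log2 difference from VEH-HC was 0.31 in VEH-T3, 0.36 in Y397D-T3, 0.21 in VEH-T10 and 0.28 in Y397F-T10.

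Epha5, a receptor of A-type ephrins known for axon guidance to and within the hippocampus, followed the same order of conditions. It ranged from 9.55 to 13.4 FPKM around a median of 11.9 in VEH-HC. After 3 min it ranged from 13.4 to 17.4 around 15.8 in VEH-T3 and from 14.0 to 17.7 around 15.9 FPKM in Y397D-T3. After 10 min it ranged from 12.2 to 16.2 around 14.1 in VEH-T10 and from 10.9 to 17.2 around 14.7 FPKM in Y397F-T10. The Y397D-T3 mice were again all above the home-cage mice. Its log2 differences from VEH-HC were 0.39, 0.42, 0.24 and 0.27 in VEH-T3, Y397D-T3, VEH-T10 and Y397F-T10.

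Epha3, another receptor of A-type ephrins with known roles in axon mapping, was the least abundant. Its median was 2.27 FPKM in VEH-HC (1.67 to 2.504), 2.35 in VEH-T3 (2.25 to 2.96), 2.86 in Y397D-T3 (2.46 to 3.51), 2.59 in VEH-T10 (2.24 to 3.11) and 2.40 in Y397F-T10 (2.03 to 2.91). Every trained condition overlapped VEH-HC. Its log2 differences from VEH-HC ran from 0.12 in Y397F-T10 to 0.28 in Y397D-T3, a scale on which the added 1 shrinks a gene at this level.

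Epha7, a receptor of A-type ephrins that acts on dendrite growth and spine formation, had the largest SD in FPKM of the 10 receptors in each trained condition, from 7.29 to 13.1 FPKM. In VEH-HC its SD of 2.90 FPKM was below the 4.10 FPKM of Epha4. Its lowest, median and highest levels were 35.6, 38.8 and 42.7 FPKM in VEH-HC, 26.5, 51.8 and 64.6 FPKM in VEH-T3 and 37.4, 54.6 and 59.4 FPKM in Y397D-T3. They were 29.3, 43.7 and 48.7 FPKM in VEH-T10 and 23.0, 49.0 and 53.9 FPKM in Y397F-T10. The lowest mouse of VEH-T10, Y397F-T10 and VEH-T3 was in each case mouse 1, the library low in astrocyte, oligodendrocyte, microglia and endothelium markers. All other 27 libraries lay between 35.6 and 64.6 FPKM. The log2 difference of Epha7 from VEH-HC was 0.08, 0.17 and 0.28 in VEH-T10, Y397F-T10 and VEH-T3 with these libraries and 0.17, 0.35 and 0.45 without them, and it was 0.35 in Y397D-T3.

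Epha10 and Ephb6 are members whose kinase domain lacks catalytic activity. Epha10 had a median of 7.48 FPKM in VEH-HC (7.25 to 8.15), 7.45 in VEH-T3 (6.96 to 8.72), 8.70 in Y397D-T3 (8.12 to 9.29), 7.03 in VEH-T10 (6.04 to 7.72) and 7.57 in Y397F-T10 (5.84 to 7.95). Only its Y397D-T3 median lay above the highest VEH-HC mouse, and the mice of these 2 conditions overlapped at their edge. Ephb6 had a lowest, median and highest level of 21.3, 23.2 and 24.03 FPKM in VEH-HC, 16.1, 18.2 and 26.5 in VEH-T3, then 19.5, 22.7 and 24.6 in Y397D-T3. In VEH-T10 these were 19.3, 21.7 and 24.5 FPKM and in Y397F-T10 17.8, 19.98 and 31.7 FPKM. The highest mouse in VEH-T10, Y397F-T10 and VEH-T3 was mouse 1, the reverse of its place in Epha7. Ephb6 differed from VEH-HC by -0.25, -0.03, -0.08 and -0.11 on the log2 scale in VEH-T3, Y397D-T3, VEH-T10 and Y397F-T10, and without the 3 libraries VEH-T3, VEH-T10 and Y397F-T10 were at -0.34, -0.11 and -0.22. The difference in Y397D-T3 turned to 0.00 when each library was centred on its median and to 0.01 when trends with transcript length and GC content were removed.

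The catalytically active EphB receptors, which bind B-type ephrins and gather NMDA receptors at excitatory synapses, had smaller differences from VEH-HC than Epha4, Epha5 and Epha6 with all 30 libraries. Ephb1 had a median of 9.88 FPKM in VEH-HC (7.73 to 11.5), 10.9 in VEH-T3 (7.77 to 13.5), 10.9 in Y397D-T3 (9.43 to 11.3), 10.9 in VEH-T10 (7.79 to 13.3) and 10.2 in Y397F-T10 (5.96 to 11.4). Ephb2 had a median of 7.03 FPKM in VEH-HC (6.14 to 7.78), 7.46 in VEH-T3 (5.52 to 8.76), 7.95 in Y397D-T3 (7.36 to 8.23), 7.39 in VEH-T10 (6.68 to 7.68) and 7.45 in Y397F-T10 (6.01 to 8.21). Ephb3 had a median of 6.09 FPKM in VEH-HC (5.42 to 7.00), 5.86 in VEH-T3 (5.28 to 6.99), 6.45 in Y397D-T3 (5.79 to 7.42), 6.00 in VEH-T10 (5.35 to 6.34) and 6.19 in Y397F-T10 (4.97 to 6.44). The home-cage and trained mice overlapped for each of the 3 genes in each condition. Their log2 differences from VEH-HC lay between -0.06 (Ephb3 in Y397F-T10) and 0.15 (Ephb2 in Y397D-T3). The Ephb1 difference without the 3 libraries went from 0.13 to 0.21 in VEH-T10, from 0.11 to 0.19 in VEH-T3 and from -0.03 to 0.09 in Y397F-T10.

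**Figure D2:**
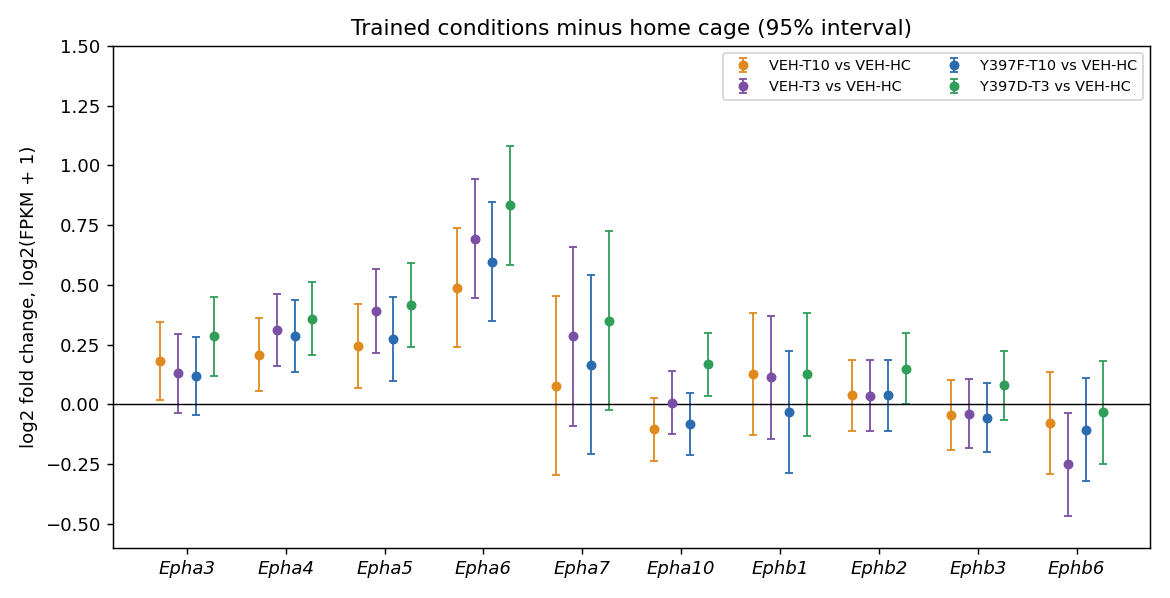
Difference of each trained condition from VEH-HC for the 10 receptors on the log2(FPKM + 1) scale, with 95% intervals from limma and 1 colour per condition. Epha6 lies highest in all 4 comparisons, from 0.49 to 0.83, and Ephb6 lies below 0 in all 4 as deposited, its Y397D-T3 value turning to 0.00 or above with the rescalings.

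Read as a list, the receptors differed from VEH-HC by a median of 0.12 in VEH-T3, 0.23 in Y397D-T3, 0.10 in VEH-T10 and 0.08 in Y397F-T10 on the log2 scale, where the medians over all 13184 tested genes were -0.04, -0.03, -0.03 and -0.04. The 6 EphA genes had medians of 0.30, 0.35, 0.19 and 0.22 and the 4 EphB genes 0.00, 0.10, 0.00 and -0.04 in the same order. With limma and Benjamini-Hochberg adjustment over all tested genes at a threshold of 0.05, Epha4, Epha5 and Epha6 passed in VEH-T3, Epha3, Epha4, Epha5 and Epha6 in Y397D-T3, and Epha6 alone in VEH-T10 and also in Y397F-T10, all higher than VEH-HC. Since the list was selected on these comparisons, these counts of 3, 4, 1 and 1 of 10 are printed beside the background and nothing is read from them. Among all tested genes, 2.23% were called higher in VEH-T3, 3.91% in Y397D-T3, 0.319% in VEH-T10 and 0.47% in Y397F-T10. In either direction the shares were 5.17%, 7.07%, 0.819% and 1.13%. In 30 fits that each left out 1 library, the Epha6 call was lost in 20 for VEH-T10 and in 6 for Y397F-T10. It was lost in 0 of 30 for VEH-T3 and for Y397D-T3. Without mouse 4 of VEH-HC the counts of receptors were 2, 3, 0 and 0, and without the 3 libraries they were 5, 5, 3 and 5, Ephb6 being the 1 lower call in Y397F-T10 and in VEH-T3. With only the compared conditions in the fit they were 0 in VEH-T3 and 0 in Y397F-T10, and in VEH-T10 the count was 0 without a variance trend, without the filter and with median centring. The shares of all tested genes called under these alternatives are not given here, and nothing is read from these counts either.

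All 6 trained mice lay above all 6 home-cage mice for Epha6 in each of the 4 comparisons, and for Epha4 and Epha5 in Y397D-T3 as well. The share of all tested genes with such a separation was 0.675% in VEH-T3, 2.5% in Y397D-T3, 0.789% in VEH-T10 and 0.554% in Y397F-T10.

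Levels of some marker genes also differed between home-cage and trained mice. The median deep cortex marker sum was 57.5 FPKM in VEH-HC (50.2 to 62.7) against 42.8 in VEH-T3 (34.3 to 71.4), 45.8 in Y397D-T3 (41.9 to 57.2), 44.6 in VEH-T10 (35.9 to 53.7) and 44.7 in Y397F-T10 (35.9 to 67.7), and 2 of the 7 markers averaged below 1 FPKM. The median choroid plexus marker sum was 3154 FPKM in VEH-HC (918 to 5607) against 1957 in VEH-T3 (29.9 to 12801) and 125 in Y397D-T3 (14.2 to 2842). It was 102 in VEH-T10 (10.4 to 4477) and 55.9 in Y397F-T10 (28.8 to 10415), so mice of every trained condition overlapped VEH-HC. The median dentate granule marker sum was 131 FPKM in VEH-HC against 171, 169, 141 and 164 in the same order, and the thalamus sum 36.4 against 36.3, 32.4, 31.4 and 31.7. With limma and adjusted p under 0.05, 0, 2, 1 and 1 of the 7 tested thalamus markers and 0, 1, 1 and 0 of the 5 tested deep cortex markers were lower in that order, and 0 of 7 dentate, 0 of 7 CA3 and CA2 and 0 of 6 choroid plexus markers were called in any of the 4. The lower calls were of Slc17a6 and Tcf7l2 (thalamus) and Ctgf (deep cortex). The median CA3 and CA2 marker sum was 161 FPKM in VEH-HC against 182, 198, 196 and 190 in the same order. Other medians did not move in 1 direction. The CA1 pyramidal sum was 199 FPKM in VEH-HC against 190, 209, 188 and 187 in that order. Astrocyte sums were 874 against 723, 801, 1084 and 968, and interneuron sums 737 against 586, 744, 642 and 612. Called higher were Pou3f1, 1 of 6 CA1 pyramidal markers, in Y397D-T3 (log2 difference 0.33), Rbfox3, 1 of 4 pan-neuronal markers, in Y397D-T3 (0.29), Flt1, 1 of 4 endothelium markers, in VEH-T3 (0.24), and the globin gene Hbb-bs, which shares reads with near-identical copies, in VEH-T3 (3.26) and Y397D-T3 (4.88). The median summed erythroid level was 1245 FPKM in VEH-HC against 1403, 1754, 1354 and 1638 in the same order. The part of these cell populations in the receptor levels was not tested.

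**Figure D3:**
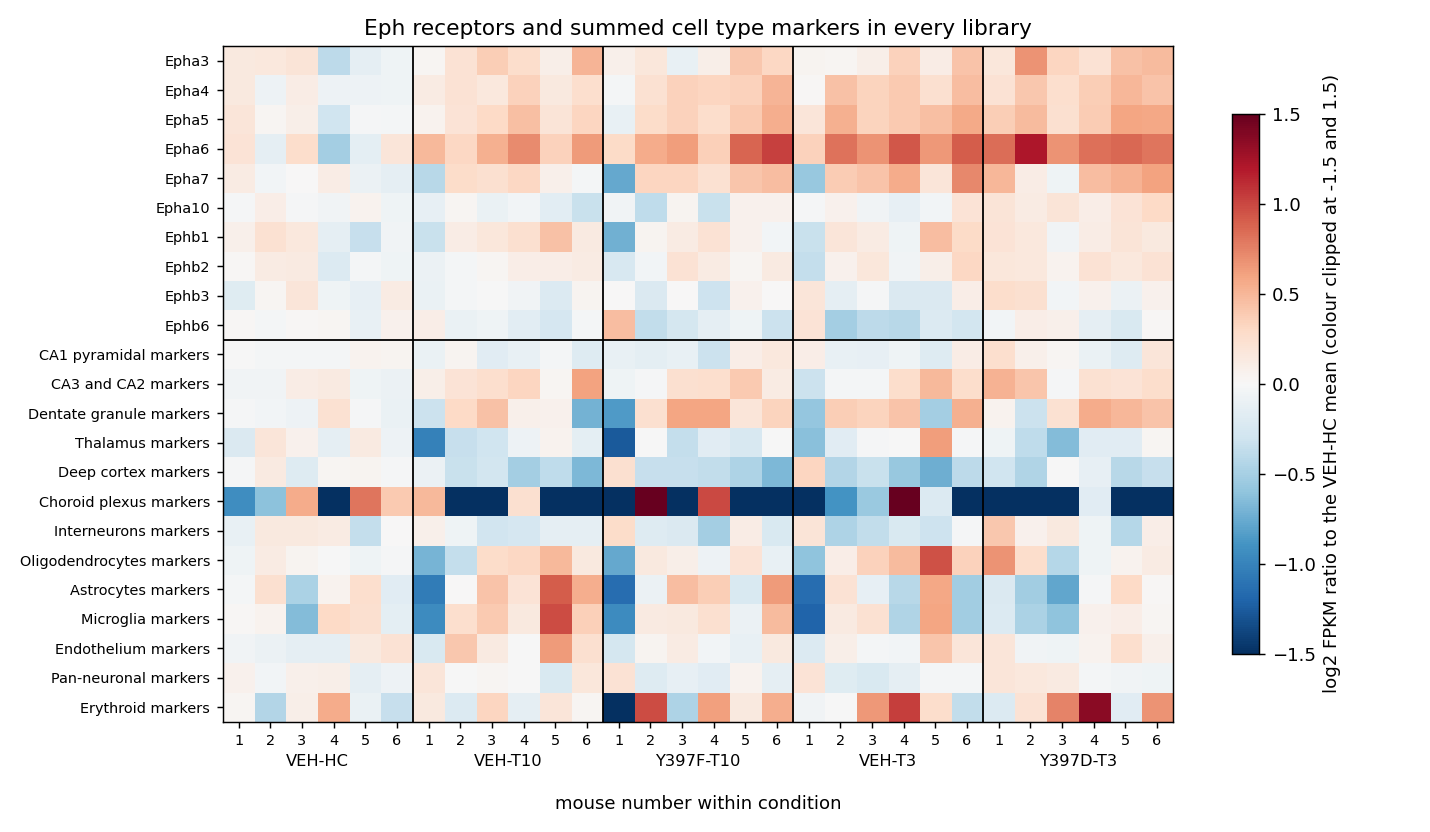
Log2 ratio of each library to the VEH-HC mean for the 10 receptors (upper rows) and for summed markers of 13 cell types or regions (lower rows), with mice along the horizontal axis by condition and the colour scale clipped at -1.5 and 1.5. Epha6 is red in all 24 trained libraries, and mouse 1 of VEH-T10, Y397F-T10 and VEH-T3 is blue for Epha7, astrocytes and microglia.

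The comparison of 10 min with 3 min of training in vehicle mice asks whether the length of training set receptor levels. Epha6 was lower in VEH-T10 than in VEH-T3 by a log2 difference of -0.20 (95% interval -0.45 to 0.04), which did not pass the threshold (adjusted p = 0.701, limma with Benjamini-Hochberg adjustment). An exact permutation test of the 6 against 6 mice, 2-sided, gave p = 0.0758, or 0.227 after Benjamini-Hochberg adjustment over 3 such comparisons, and the smallest p it could give was 0.00216. All 6 VEH-T10 mice lay below the VEH-T3 median of Epha6, and also below the VEH-T3 median of Epha4 and of Epha7. Ephb6 went the other way, with all 6 VEH-T10 mice above the VEH-T3 median. Its log2 difference was 0.17 (95% interval -0.04 to 0.39, adjusted p = 0.705, limma). The differences of Epha4, Epha5 and Epha7 were -0.10, -0.15 and -0.21 (adjusted p = 0.756, 0.694 and 0.810, limma). Of the 10 receptors 0 were called, against 0.0455% of all tested genes, and 0 had an unadjusted p under 0.05, against 8.15% of all tested genes.

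Y397F-T10 was compared with VEH-T10 to ask what the Y397F form changed after threshold training. Epha6 was 16.5 against 15.1 FPKM on average, a log2 difference of 0.11 (95% interval -0.14 to 0.36) with adjusted p = 1.00 (limma) and an exact permutation p of 0.372. Ephb1 had the largest difference of the list, at -0.16 (-0.41 to 0.10), and mouse 1 of Y397F-T10 held its lowest level of 5.96 FPKM. Of the 10 receptors 0 were called and 0 had an unadjusted p under 0.05 (limma). Among all tested genes 0% were called and 3.78% had an unadjusted p under 0.05. The median difference over the 10 receptors was 0.01, with 6 above 0 and 4 below.

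Y397D-T3 was compared with VEH-T3 to ask what the Y397D form changed after subthreshold training. All 10 receptors had a positive difference, with a median of 0.12 on the log2 scale against 0.00 over all tested genes, of which 50.9% were positive. None of the 10 passed the adjusted threshold (limma), as 0.00758% of all tested genes did. Epha10 differed by 0.16 (95% interval 0.03 to 0.29, adjusted p = 0.578) and Ephb6 by 0.22 (0.00 to 0.43, adjusted p = 0.633), and these 2 had an unadjusted p under 0.05, as 7.87% of all tested genes did. Each of the 6 Y397D-T3 mice lay above the VEH-T3 median for Epha10, for Ephb6 and for Epha3. Epha6 differed by 0.14 (-0.11 to 0.39, adjusted p = 0.786, limma), and the exact permutation p was 0.273, or 0.372 after adjustment over 3 comparisons. Without the 3 libraries, 1 of which is a VEH-T3 mouse, 6 of the 10 differences were positive with a median of 0.06, and those of Epha4, Epha5, Epha7 and Ephb1 were below 0.

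**Figure D4:**
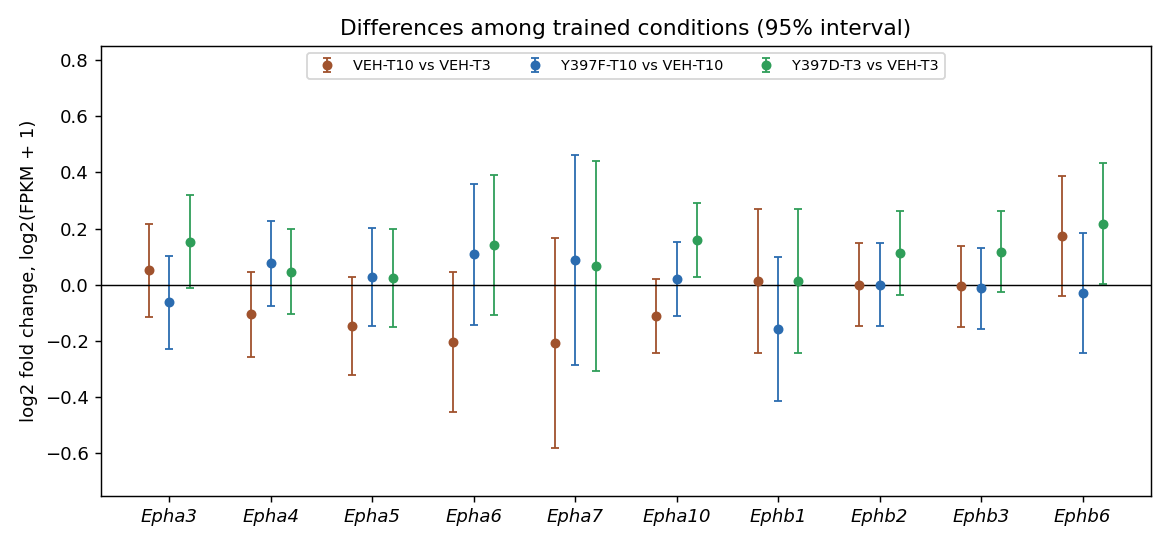
Differences among trained conditions for the 10 receptors on the log2(FPKM + 1) scale with 95% intervals, for VEH-T10 against VEH-T3, Y397F-T10 against VEH-T10 and Y397D-T3 against VEH-T3. The intervals of Epha10 and Ephb6 in Y397D-T3 against VEH-T3 lie above 0 before adjustment, and Epha6 spans 0 in all 3.

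The plasmids were also set against each other, as the Y397F difference after 10 min minus the Y397D difference after 3 min. For Epha6 this was -0.03 (95% interval -0.39 to 0.32, adjusted p = 0.978, limma). The largest was -0.25 for Ephb6 (-0.55 to 0.06, adjusted p = 0.640), followed by -0.22 for Epha3 (-0.45 to 0.02, adjusted p = 0.586). Of the 10 receptors 0 were called, against 0.0303% of all tested genes, and 0 had an unadjusted p under 0.05, against 9.08% of all tested genes. Training length and plasmid differ together between these arms and cannot be told apart here.

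Epha3, Epha4, Epha5 and Epha6 were positively correlated with each other within conditions. So were some pairs outside these 4, while others were strongly negative. Taking each library's deviation from its condition mean on the log2 scale, the highest Pearson correlation among the 45 pairs was between Epha4 and Epha5 (r = 0.859 over 30 libraries, 0.774 over 27 without the 3 libraries). Epha5 and Epha6 had r = 0.756 (0.730 over 27), Epha4 and Epha6 r = 0.716 (0.623) and Epha3 and Epha6 r = 0.677 (0.703). Epha3 had lower values with Epha4 (0.486, 0.495 over 27) and with Epha5 (0.588, 0.601). Pairs with receptors outside these 4 reached higher values, such as Epha4 with Epha7 (0.783, 0.488) and Epha5 with Ephb2 (0.718, 0.535). These 4 EphA receptors thus kept positive correlations without the 3 libraries. The lowest correlation, between Epha7 and Ephb6, was -0.817 over 30 libraries and -0.297 over 27, those of Ephb6 with Epha4, Epha5, Ephb1 and Ephb2 lay between -0.678 and -0.611 over 30 libraries, and that of Epha7 with Ephb1 went from 0.690 to 0.00. Ephb1 and Ephb2 had r = 0.763, or 0.548 over 27. The values of a pair come from the same libraries and so share depth and tissue composition.

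**Figure D5:**
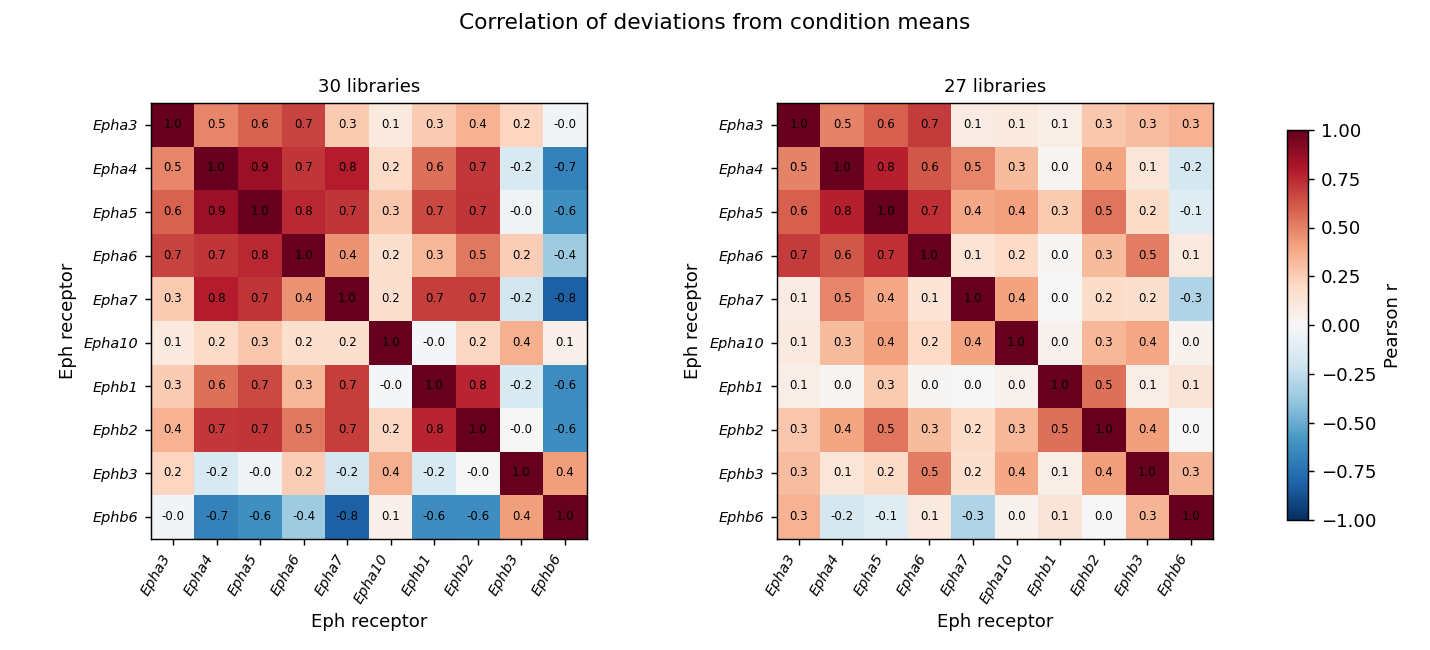
Pearson correlation between the 10 receptors of log2(FPKM + 1) deviations from condition means, over all 30 libraries (left) and over 27 without mouse 1 of VEH-T10, Y397F-T10 and VEH-T3 (right). The block of Epha3, Epha4, Epha5 and Epha6 is positive in both, and the negative values of Ephb6 with Epha7 shrink from -0.817 to -0.297.

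Across all 30 libraries the tested genes whose level was most like that of Epha6 were Frrs1l, an AMPA receptor assembly factor (r = 0.913), Prickle2, a planar polarity protein found at synapses (r = 0.910), Atp2b1, a plasma membrane calcium pump (r = 0.903), Gnaq, a G protein subunit (r = 0.896), and Kcnq3, a potassium channel subunit (r = 0.895). By deviations from condition means they were Prickle2 (r = 0.805), Frrs1l (r = 0.800), Atp2b1 (r = 0.797), Gpr63 (r = 0.793) and Mef2a, an activity-regulated transcription factor (r = 0.772). The first 3 names were thus among the 5 most like Epha6 by both measures.

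Of the other 4 Eph receptors, Epha1, Epha2 and Epha8 averaged below 1 FPKM and were not tested. Epha8 was 0.821 ± 0.136 FPKM in VEH-HC and between 0.480 and 0.611 on average in the trained conditions (SD, n = 6), with overlapping mice. Ephb4, the receptor of ephrin-B2 in blood vessels, averaged 2.21 FPKM in VEH-HC and 1.68 to 1.97 FPKM in trained conditions, and its largest log2 difference was -0.26 in Y397D-T3 (adjusted p = 0.133, limma).

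With all 30 libraries in the fit, the tested ephrin ligands did not pass in any comparison. Of 8 ligands, 6 were tested, and Efna4 and Efna5 averaged below 1 FPKM over the 30 libraries. Efna5 was 1.26 ± 0.292 FPKM in VEH-HC and between 0.666 and 0.924 on average in the trained conditions (SD, n = 6), with overlapping mice. The most abundant were Efnb3, a transmembrane ligand at synapses, at 52.2 ± 1.85 FPKM in VEH-HC, and Efna3, a ligand of Epha4, at 39.5 ± 2.52 FPKM (SD, n = 6). Efnb3 averaged 43.7 FPKM in VEH-T10, a log2 difference of -0.25 (adjusted p = 0.0930, limma), and -0.11 to -0.19 in the other trained conditions. Efnb2, the B-type ligand of vessels and neurons, differed from VEH-HC by -0.42, -0.30, -0.35 and -0.38 in VEH-T3, Y397D-T3, VEH-T10 and Y397F-T10 (adjusted p = 0.192, 0.324, 0.389 and 0.311, limma). Efna2 differed by -0.21, -0.13, -0.21 and -0.26 in the same order (adjusted p = 0.138, 0.352, 0.224 and 0.107, limma). When the 3 libraries were left out, Efnb2 was called lower in each trained condition, at -0.59, -0.30, -0.47 and -0.55 in the same order (adjusted p = 0.000807, 0.0471, 0.00814 and 0.00234, limma). Efnb3 was then called in VEH-T10 (-0.26, adjusted p = 0.0407, limma), Efna2 in Y397F-T10 (-0.31, adjusted p = 0.0258, limma) and Ephb4 in Y397D-T3 (-0.26, adjusted p = 0.0475, limma). The 3 libraries were chosen after seeing the data and held the highest Efnb2 of their conditions. Those levels were 9.74 FPKM in VEH-T3, 8.35 in VEH-T10 and 10.3 in Y397F-T10, against 7.79 in the highest VEH-HC mouse. Leaving them out lowered the Efnb2 means of these conditions, so the calls without them are given as a description. With only the compared conditions Efnb3 was called in VEH-T10 (adjusted p = 0.0429, limma), and Efnb2 and Ephb4 in Y397D-T3 (adjusted p = 0.0312 and 0.0167, limma). Leaving out mouse 1 of VEH-T3 or of Y397F-T10 alone led to calls of Efnb2 in VEH-T3 and of Efna2 in Y397F-T10. Efna1 and Efnb1 had adjusted p of at least 0.363 in each comparison with VEH-HC. The median difference of the 6 ligands was below 0 in all 4 comparisons, at -0.09, -0.07, -0.22 and -0.21, opposite in sign to the receptor medians, and this contrast of lists was not tested.

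Among 20 partners and regulators of Eph signalling, 2 were called in VEH-T3, 4 in Y397D-T3, 0 in VEH-T10 and 1 in Y397F-T10 against VEH-HC (limma, adjusted p under 0.05), next to the shares of either direction given above for all tested genes. Itsn1, an exchange factor for Cdc42 that acts with EphB2 in spine formation, rose in Y397F-T10 (log2 difference 0.20, adjusted p = 0.0374), VEH-T3 (0.18, adjusted p = 0.0261) and Y397D-T3 (0.17, adjusted p = 0.0340), and was 0.13 in VEH-T10 (adjusted p = 0.186). In Y397D-T3, Kalrn, an exchange factor for Rac1 downstream of EphB, rose by 0.28 (adjusted p = 0.0321). Nck2, an adaptor that binds phosphorylated Eph receptors, rose by 0.19 (adjusted p = 0.0304), and Sipa1l1, a spine protein that inactivates Rap, by 0.22 (adjusted p = 0.0123). Anks1, an adaptor that acts on EphA receptor stability, fell in VEH-T3 with a log2 difference of -0.17 (adjusted p = 0.0438, limma). With only the compared conditions the calls of Itsn1 in Y397F-T10, VEH-T3 and Y397D-T3 and of Anks1 were lost. With length and GC trends removed the calls of Itsn1, Kalrn and Anks1 were lost, and with median centring those of Itsn1 in Y397F-T10 and of Anks1. The Anks1 call was also lost without the filter, without the 3 libraries and in 14 of 30 fits that each left out 1 library. The Itsn1 call in VEH-T3 was lost without mouse 4 of VEH-HC and without mouse 2 or mouse 3 of VEH-T3, and that in Y397F-T10 in 7 of 30 such fits. In Y397D-T3 the Sipa1l1 call was lost in 0 of 30, those of Itsn1 and Kalrn in 7 each and that of Nck2 in 8, and Sipa1l1 was the 1 call left without mouse 2, 4 or 5 of VEH-HC or mouse 5 or 6 of Y397D-T3. With all 30 libraries, in the comparisons among trained conditions 0 of the 20 partners, 6 ligands and Ephb4 were called.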

How the data were processed

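RNA from the dorsal hippocampus of 30 mice, 6 per condition, was sequenced by the authors as paired-end libraries on NovaSeq and HiSeq instruments, and which library ran on which is not given in the sources used here. The authors aligned reads to mm10 with TopHat2 2.1.1 and deposited FPKM per gene from Cufflinks 2.2.1, in 1 table of 24883 rows and 30 columns. FPKM holds no read totals, so precision is taken from the variation among mice. The limma p-values weigh a mean difference against a variance shared by all 5 conditions and drawn toward a trend on mean level. Whether mice of a condition shared a litter or day is not stated.

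Rows with a mean of at least 1 FPKM (13184) were transformed to log2(FPKM + 1) and fitted by condition with limma 3.58.1 (R 4.3.3), all 30 libraries sharing a variance per gene, a trend on mean level, and Benjamini-Hochberg adjustment over all tested rows at 0.05. The added 1 understates changes of low genes. Epha6 was also compared with exact permutation tests. Alternatives were no trend, a replicate block, a pseudocount of 0.1, no filter, median centring, removal of length and GC trends, only the compared conditions, and each library left out. The 10 receptors were all named, as were the ephrins and other Eph receptors, while partners were named where called, and the 5 genes most like Epha6 by Pearson r. The members and lists were chosen with earlier results of these data known. Same-numbered mice are different animals, so the numbers were not taken as pairs. Of 60 correlations of their deviations, 24 exceeded 0.1 (range -0.50 to 0.84). The highest was between mouse 1 of Y397F-T10 and mouse 1 of VEH-T3. Differently numbered mice were not correlated as a reference, so whether libraries of a number shared a batch was not tested. Gene positions are from GENCODE on GRCm38. Tables and plots were made with pandas 2.3.3, numpy 2.4.6, matplotlib 3.10.9 and scipy 1.17.1 under Python 3.11.15.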

Additional observations from a re-analysis of the deposited data

Results flagged for a closer look

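Of 50 sets of 6 mice (10 receptors in 5 conditions), 5 held a highest or lowest mouse whose gap to the next, divided by the whole range, exceeded Dixon's 95% critical value, and chance alone flags about 1 in 20 sets. Epha6 was 24.51 FPKM in mouse 2 of Y397D-T3, where the next highest mouse was 19.1 FPKM. Mouse 1 of Y397F-T10 held 3 of the 5 values, with Epha7 at 22.96 FPKM against 45.9 in the next lowest, Ephb1 at 5.964 FPKM against 9.55 in the next lowest, and Ephb6 at 31.68 FPKM against 21.9 in the next highest. Ephb6 was 26.49 FPKM in mouse 1 of VEH-T3, where the next highest mouse was 19.8 FPKM. Both of these libraries are among the 3 with the lowest astrocyte marker sums, 391 FPKM in mouse 1 of Y397F-T10 and 393 FPKM in mouse 1 of VEH-T3, and the part of tissue composition in these values was not tested.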

How the results depend on the processing

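Counts of called receptors against VEH-HC were 1 (VEH-T10), 3 (VEH-T3), 1 (Y397F-T10) and 4 (Y397D-T3), and those of called pathway genes 0, 2, 1 and 4. In VEH-T10 the receptor count was 0 without a variance trend, without the filter and with median centring. With only the compared conditions, receptors numbered 0 in VEH-T3 and 0 in Y397F-T10, and pathway genes 2 in VEH-T10, 0 in VEH-T3 and 0 in Y397F-T10. The replicate block, on numbers that do not pair mice, gave 2 receptors in Y397F-T10. Pathway genes in VEH-T3 numbered 1 without the filter, 1 with median centring and 1 with length and GC trends removed, and in Y397F-T10 0 under the last 2. At an unadjusted p under 0.05, receptors numbered 4 in VEH-T10, 3 in Y397F-T10 and 2 in Y397D-T3 against VEH-T3, and pathway genes 6, 8, 6 and 9 in VEH-T10, VEH-T3, Y397F-T10 and Y397D-T3, 2 in VEH-T10 against VEH-T3 and 2 in Y397D-T3 against VEH-T3. Of all tested genes, 14.9%, 21.6%, 16.9% and 24.9% had such a p (limma) against VEH-HC, in the order of the pathway genes. The shares were 8.15% in VEH-T10 against VEH-T3 and 7.87% in Y397D-T3 against VEH-T3. Leaving out the 3 libraries with the lowest astrocyte marker sums, an alternative chosen after seeing the data, gave 3 receptors in VEH-T10, 5 in VEH-T3 and 5 in Y397F-T10, and 3, 7, 4 and 7 pathway genes in VEH-T10, VEH-T3, Y397F-T10 and Y397D-T3. The shares of all tested genes called under the other alternatives are not given here, and the causes of these moves were not tested.

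Uncalled differences from VEH-HC changed sign as follows. Without the 3 libraries, Ephb1 in Y397F-T10 was 0.085. With median centring, Ephb6 in Y397D-T3 was 0.0029. With length and GC trends removed, Ephb1 in Y397F-T10 was 0.0061, Ephb2 was -0.032 in VEH-T3 and -0.0090 in Y397F-T10, Ephb3 was 0.0027 in VEH-T10 and 0.019 in VEH-T3, and Ephb6 in Y397D-T3 was 0.015. Leaving out 1 library, Epha10 in VEH-T3 fell below 0 in 4 fits, Ephb2 in VEH-T3 in 1, and Ephb6 in Y397D-T3 and Ephb1 in Y397F-T10 rose above 0 in 1 and 2. Among trained conditions, uncalled differences changed sign as follows. Without the 3 libraries, VEH-T10 against VEH-T3 was -0.046 for Ephb2 and 0.041 for Ephb3, Y397D-T3 against VEH-T3 was -0.011 for Epha4, -0.018 for Epha5, -0.099 for Epha7 and -0.069 for Ephb1, and the difference between plasmids was 0.098 for Epha6. With median centring, Ephb3 in VEH-T10 against VEH-T3 was 0.0051, Ephb2 in Y397F-T10 against VEH-T10 was -0.0044 and Epha5 in the difference between plasmids was -0.017. With length and GC trends removed, Y397F-T10 against VEH-T10 was -0.030 for Epha5 and -0.051 for Ephb2, and the difference between plasmids was -0.051 for Epha4, -0.12 for Epha5 and -0.091 for Epha7. With a pseudocount of 0.1, Ephb2 in Y397F-T10 against VEH-T10 was -3.26e-06.

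Leaving out each library in turn, receptors called ranged from 0 to 1 in VEH-T10 and 0 to 3 in Y397F-T10, and pathway genes from 0 to 1, 0 to 5, 0 to 2 and 1 to 5 in VEH-T10, VEH-T3, Y397F-T10 and Y397D-T3. In Y397F-T10 against VEH-T10 the ranges were -0.015 to 0.070 (Epha10), -0.020 to 0.10 (Epha5), -0.0076 to 0.27 (Epha7), -0.031 to 0.048 (Ephb2), -0.037 to 0.028 (Ephb3) and -0.14 to 0.019 (Ephb6). In Y397D-T3 against VEH-T3 they were -0.011 to 0.076 (Epha4), -0.018 to 0.062 (Epha5), -0.099 to 0.15 (Epha7) and -0.069 to 0.077 (Ephb1). In VEH-T10 against VEH-T3 they were -0.068 to 0.096 (Ephb1), -0.067 to 0.049 (Ephb2) and -0.035 to 0.034 (Ephb3). In the difference between plasmids they were -0.013 to 0.091 (Epha4), -0.045 to 0.077 (Epha5), -0.11 to 0.038 (Epha6) and -0.075 to 0.20 (Epha7). The Epha6 differences from VEH-HC, which chose the list, ranged over these alternatives from 0.40 to 0.54 in VEH-T10, 0.51 to 0.66 in Y397F-T10, 0.60 to 0.76 in VEH-T3 and 0.75 to 0.89 in Y397D-T3. Absolute depth is unknown, and genes under 1 FPKM were not tested.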
